A study of Mus musculus with 32 samples.

Results

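The RING and TRIM ubiquitin ligases described here were the protein-coding genes of the mouse germ-cell gene table whose GENCODE M21 symbol starts with Trim, Rnf or March and a number, apart from Rnf8, Rnf17 and Rnf212. They numbered 116 of the 20368 rows of the table, with 38 Trim, 69 Rnf and 9 March genes. In the annotation 161 symbols matched, and the 45 that were not rows of the table had no place in the tests. RNA-seq had been made from germ cells of male C57BL/6J mice aged 8 days post-partum (dpp, n = 3 mice) and 10, 12, 14, 16 and 18 dpp (n = 5 mice at each age), with both testes of 1 mouse digested with Liberase for each sample. The study had collected 5 mice at 8 dpp and left out those that matched the others of that age poorly in cytology and RNA-seq. The spread at 8 dpp is therefore that of the mice kept. No genetic change or treatment was given to any group, and age was the variable. The 4 adult samples were pachytene and diplotene spermatocytes enriched by sedimentation through STA-PUT, each pooled from 6 mice at 9 weeks of age.

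Ubiquitin is attached to proteins in a relay. An E1 enzyme activates it, an E2 enzyme carries it, and an E3 ligase chooses the substrate. RING ligases bring the E2 and the substrate together without holding ubiquitin themselves. Most TRIM proteins are RING ligases that also carry B-box and coiled-coil domains, and MARCH proteins are mostly membrane ligases with a variant RING. Genes were taken here by symbol, and whether each protein holds a RING was not checked. In the testis, ubiquitin marks are known for their part in histone modification during meiosis and in the later rebuilding of the spermatid.

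Levels were given as TPM, the abundance of a gene's transcripts scaled for their length and for the total of the library, and tests ran on log2(TPM + 1) with limma over all 20368 genes at an adjusted p of 0.05. TPM keep no read counts, so sequencing depth was unknown and counting error could not be given. Of the 116 ligases, 98 reached 3 TPM in all 28 mice, 115 did so in at least 3 mice, and Rnf165 did so in 1 mouse only. Median level over the ligases lay at 32.6 TPM at 8 dpp and at 36.0 TPM at 18 dpp, and their summed level ran from 6041 to 6155 TPM at 8 dpp and from 6573 to 7783 TPM at 18 dpp.

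The samples held transcripts of other testis cells as well as of germ cells, and marker levels changed with age. By counts of stained cells, the study reported that the great majority of cells in every sample were germ cells. The summed level of 8 Sertoli markers was 2521 to 2871 TPM at 8 dpp and 1006 to 1508 TPM at 18 dpp (7 of 8 fell and Rhox5 rose), and that of 7 spermatogonium markers was 1089 to 1226 TPM and 486 to 688 TPM (7 of 7 fell). Over the same ages the sum of 6 late pachytene markers went from 45.7 to 56.1 TPM to 2559 to 4638 TPM (6 of 6 rose). All 6 meiotic prophase markers rose as well. The other somatic lists did not move as the Sertoli list did. Of 6 Leydig markers 3 rose and 0 fell, and of 5 macrophage markers 4 rose and 0 fell. Among 5 peritubular markers 0 rose and 1 fell, and among 4 endothelial markers 1 rose and 1 fell. In bulk samples fewer cells of a type and less RNA per cell cannot be told apart. The study also scored germ-cell stages by cytology in the same mice, and those scores were not used here. The part of these shifts in the changes given here was not tested.

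Age changed most of these ligases. Among the 6 ages, 104 of 116 differed (limma, adjusted p under 0.05), where 77.6% of all genes tested did. From 8 to 18 dpp, 40 rose and 49 fell, against 31.8% of all genes rising and 36.3% falling. In 78 of these 89 the 3 mice at 8 dpp did not overlap with the 5 at 18 dpp. The same share was not computed over all called genes, so it cannot be read as particular to the ligases. The median ligase changed by -0.03 on the log2 scale and the median gene by -0.09. Scaling set the balance of the 2 directions. With median-of-ratios factors 52 ligases rose and 38 fell, against 37.3% and 29.4% of all genes, and the median gene moved by 0.05. The 40 ligases that rose by TPM also rose under those factors, and the others gained had not passed the test before. Quantile normalization moved the balance the other way, with 32 ligases rising and 53 falling. Of all 20368 genes, 5532 rose and 9148 fell under it, and the median gene moved by -0.26.

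**Figure D1:**
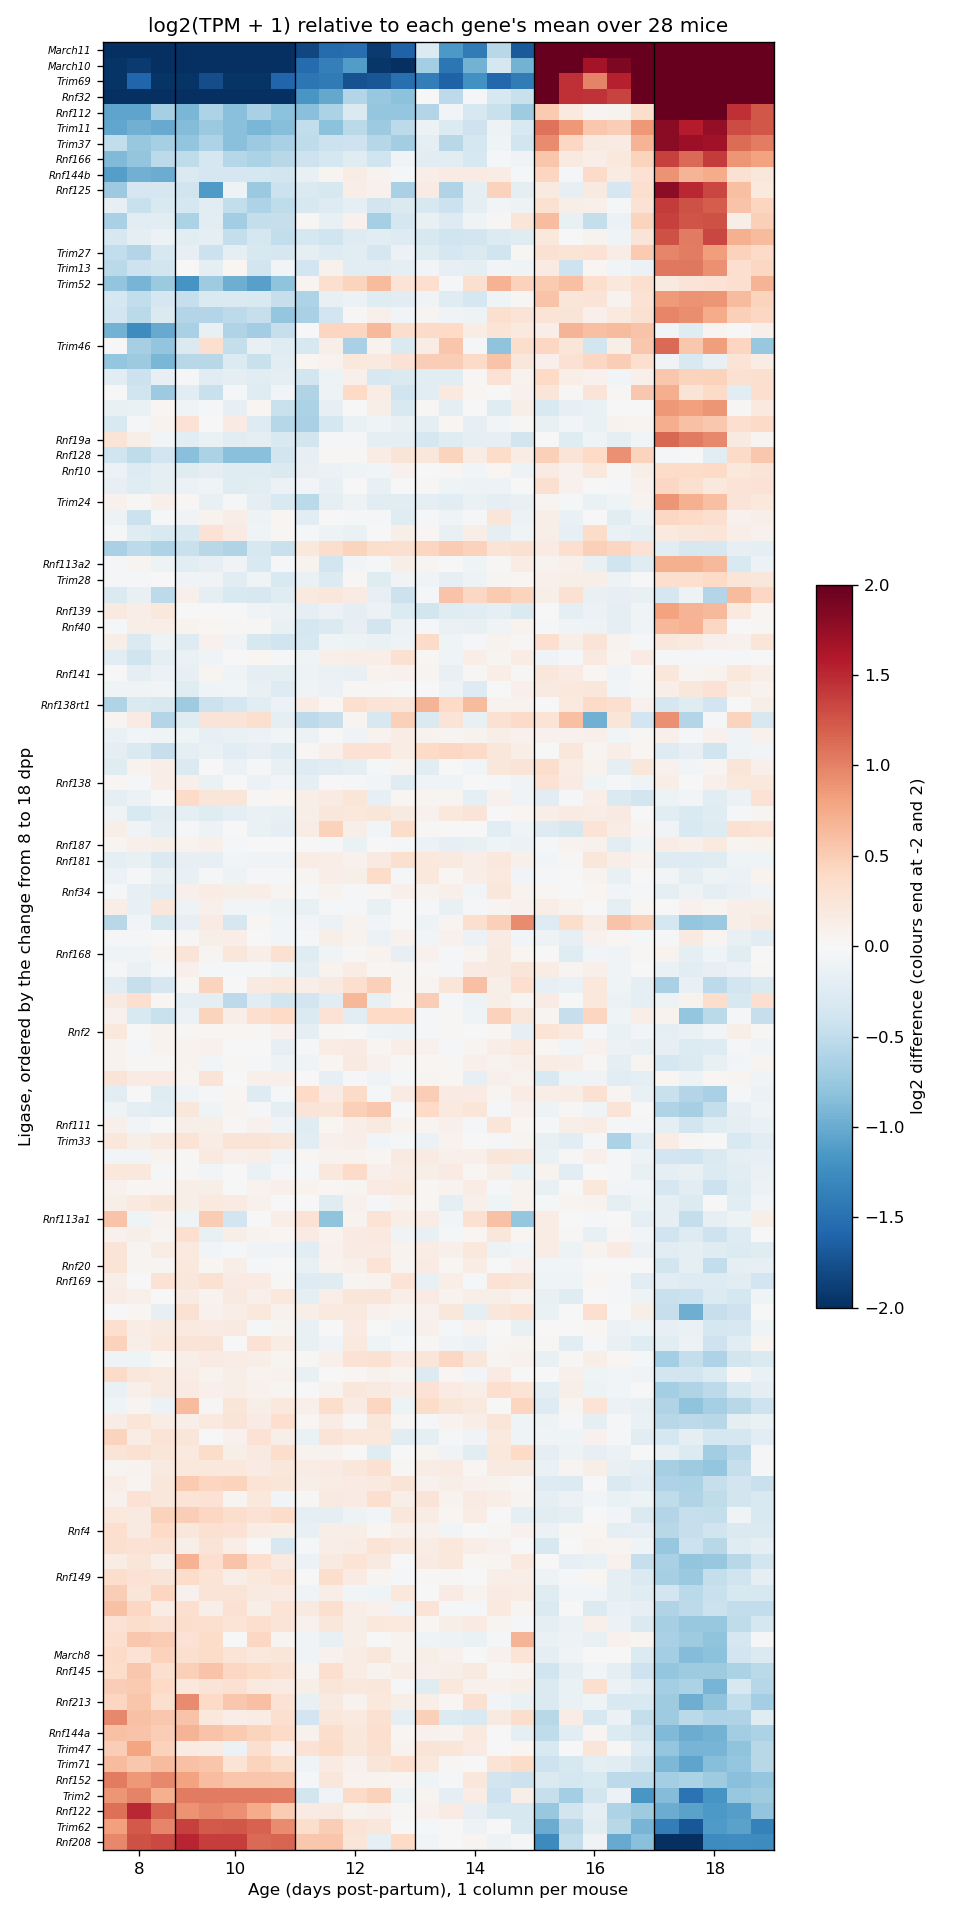
Heat map of log2(TPM + 1) for 116 ligases (rows, ordered by the change from 8 to 18 dpp) in 28 mice (columns, grouped by age in days post-partum), each row relative to its mean over the mice, with colours ending at -2 and 2 and the named ligases labelled. The top rows turn from blue to red at 16 and 18 dpp, the bottom rows from red to blue, and the middle rows stay pale at all ages.

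The strongest rises belonged to March11, March10 and Trim69, all under 2 TPM at 8 dpp, and to Rnf32. March11, which encodes a membrane ligase of developing spermatids (ENSMUSG00000022269, chr15:26309048-26409576, plus strand, GRCm38), was listed at 0 TPM in all 3 mice at 8 dpp. It stood at 5.29, 2.44, 1.87, 4.19 and 1.38 TPM at 14 dpp, at 63.7, 31.8, 30.5, 36.7 and 60.5 TPM at 16 dpp, and at 293, 273, 277, 109 and 105 TPM at 18 dpp. The mice at 14, 16 and 18 dpp did not overlap. The step from 14 to 16 dpp was 3.52 ± 0.28 (SE) on the log2(TPM + 1) scale (limma, adjusted p = 1.1e-09) and the step from 16 to 18 dpp was 2.14 ± 0.28 (limma, adjusted p = 2.3e-06). With all libraries at 0 at 8 dpp, no fold from that age can be given.

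March10, a microtubule-linked MARCH ligase known from sperm tail formation, followed the same course. Its level was 1.57, 1.65 and 0.30 TPM at 8 dpp, 74.6, 39.9, 30.7, 35.5 and 63.9 TPM at 16 dpp, and 274, 252, 234, 115 and 105 TPM at 18 dpp. The lowest mouse at 18 dpp lay above the highest at 16 dpp, and the rise from 8 to 18 dpp was 6.46 ± 0.34 on the log2 scale (limma, adjusted p = 5.9e-15). Its locus on chromosome 11 overlaps Gm11638 and Gm11640 on the other strand, and whether counting used strand was not given in the sources used here.

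Trim69, a TRIM ligase of testis and centrosome, was at 0, 0.30 and 0 TPM at 8 dpp and still at 0.27 to 0.69 TPM in the 5 mice at 14 dpp. It reached 26.1, 9.79, 6.79, 10.5 and 20.5 TPM at 16 dpp and 102.5, 109.7, 90.8, 34.6 and 34.6 TPM at 18 dpp. No earlier step passed the test, and Trim69 rose by 3.29 ± 0.30 from 14 to 16 dpp (limma, adjusted p = 4.6e-09) and by 2.24 ± 0.30 from 16 to 18 dpp (limma, adjusted p = 2.3e-06).

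Rnf32, a RING ligase known mainly from testis, began earlier. It rose from 5.08, 4.29, 2.39, 2.73 and 3.23 TPM at 10 dpp to 10.5, 11.6, 16.1, 14.1 and 13.5 TPM at 12 dpp, a step of 1.66 ± 0.22 on the log2 scale (limma, adjusted p = 4.4e-06) with no overlap between the mice. By 18 dpp it stood at 341, 340, 325, 186 and 180 TPM, and from 8 dpp it had risen by 5.84 ± 0.26 (limma, adjusted p = 2.5e-16).

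**Figure D2:**
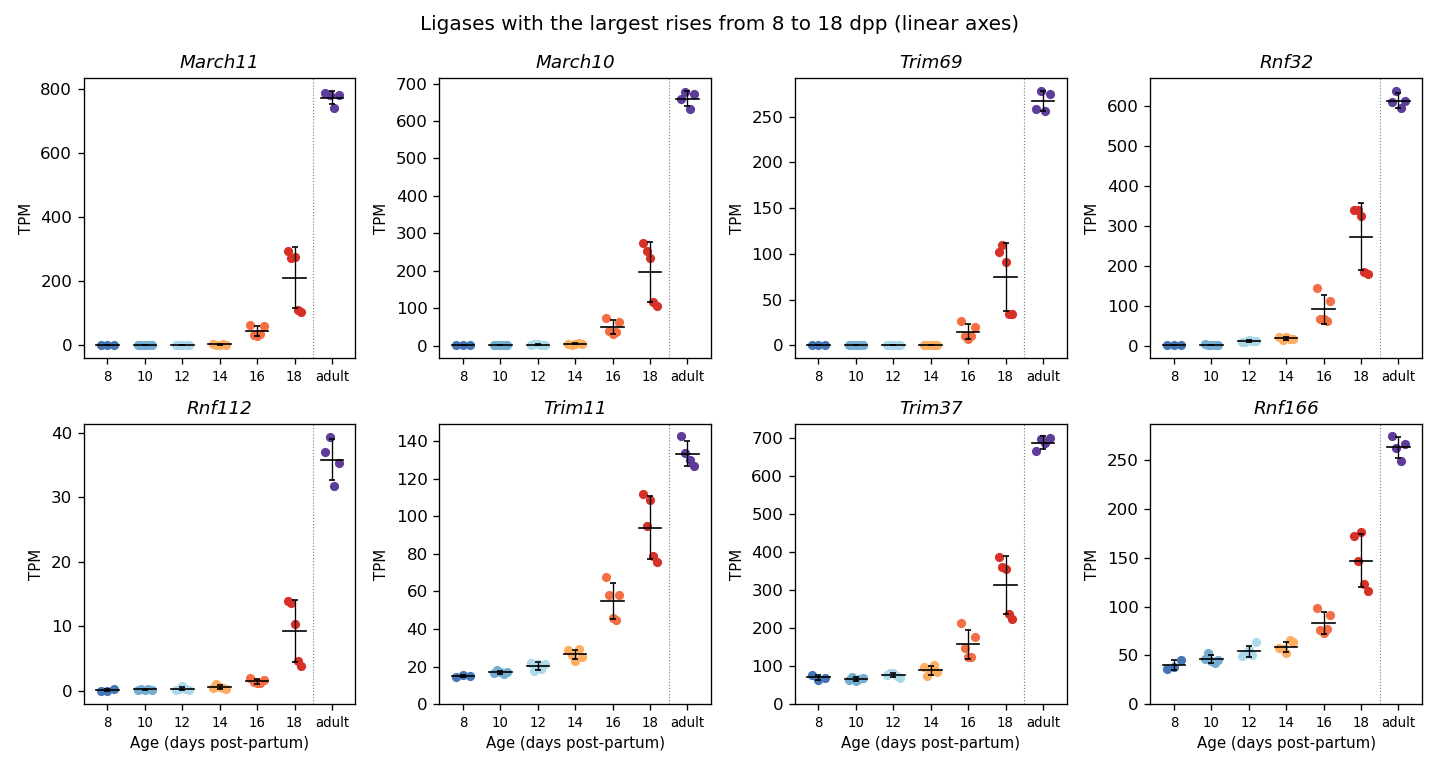
TPM (linear axes) by age for the 8 ligases with the largest rises from 8 to 18 dpp, 1 point per mouse or adult pool, with lines and bars for mean and SD. March11, March10, Trim69 and Rnf32 lie near 0 until 12 or 14 dpp, and in every panel the adult pools lie above all 28 mice.

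Promoters of these 4 genes are shown because the genes had the largest rises and because AACTG, the core bound by MYB factors, is well known from pachytene genes. The sequences are from RefSeq (GRCm38.p6), 250 bases before to 50 after the start, with AACTG and its reverse complement CAGTT in capitals. March11 lies at chr15:26308798-26309097 (plus strand), March10 at chr11:105456686-105456985 (minus strand), Trim69 at chr2:122160458-122160757 (plus strand) and Rnf32 at chr5:29195743-29196042 (plus strand).
March11: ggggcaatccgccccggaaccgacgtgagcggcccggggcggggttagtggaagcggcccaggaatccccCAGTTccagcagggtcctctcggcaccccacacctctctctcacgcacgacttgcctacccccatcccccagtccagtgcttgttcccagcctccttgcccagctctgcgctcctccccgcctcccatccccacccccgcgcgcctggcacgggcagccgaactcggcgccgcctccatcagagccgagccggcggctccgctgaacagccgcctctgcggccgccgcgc
March10: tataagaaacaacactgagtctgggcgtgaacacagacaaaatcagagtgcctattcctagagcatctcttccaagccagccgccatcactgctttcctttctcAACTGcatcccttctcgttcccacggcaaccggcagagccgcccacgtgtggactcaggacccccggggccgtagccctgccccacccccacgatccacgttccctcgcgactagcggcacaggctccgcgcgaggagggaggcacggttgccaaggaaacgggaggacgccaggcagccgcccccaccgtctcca
Trim69: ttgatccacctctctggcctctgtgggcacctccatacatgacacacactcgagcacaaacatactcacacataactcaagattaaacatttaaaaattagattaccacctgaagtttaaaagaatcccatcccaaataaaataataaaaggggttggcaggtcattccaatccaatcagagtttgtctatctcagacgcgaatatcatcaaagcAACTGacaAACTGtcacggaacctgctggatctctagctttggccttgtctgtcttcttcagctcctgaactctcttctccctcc
Rnf32: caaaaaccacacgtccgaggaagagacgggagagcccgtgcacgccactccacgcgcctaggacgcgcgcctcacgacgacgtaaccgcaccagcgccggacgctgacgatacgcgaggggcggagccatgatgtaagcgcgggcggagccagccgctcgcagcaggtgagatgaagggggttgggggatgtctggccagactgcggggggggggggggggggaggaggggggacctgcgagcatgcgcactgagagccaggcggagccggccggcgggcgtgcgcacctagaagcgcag

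The capitals mark 1 match in March11, 1 in March10 and 2 in Trim69, and these letters are not in the Rnf32 window. March11, March10 and Rnf32 each hold 2 copies of CCGCCC, the box bound by Sp and KLF factors, and Trim69 holds none. GC content was 72.7% in March11, 62.3% in March10, 71% in Rnf32 and 42.7% in Trim69. Over the ligases 91 had a promoter in the table, 32 of them rising and 41 falling from 8 to 18 dpp, and 12 of the 91 windows lie on another start than that of the gene annotation. Median GC content was 60.7% over the ligase promoters and 52.7% over all, and the part of GC in the shares was not tested. AACTG on either strand was in 43.8% of the rising and 29.3% of the falling promoters, and in 44.8% of all 32851 promoters. CCGCCC was in 62.5% of the rising, 80.5% of the falling and 35.7% of all promoters. GTTGCC, a piece of the X-box bound by RFX factors, was in 28.1%, 9.76% and 12.5%, TGACG, a piece of the CRE, in 34.4%, 24.4% and 20.8%, and TATAAA in 12.5%, 7.32% and 13.6%. All motifs were searched on both strands and counted apart, although AACTG can share its last letters TG with TGACG and, as CAGTT, its letters GTT with GTTGCC. A match describes letters, not binding.

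The next rises were smaller. Trim11, a TRIM ligase of protein quality control, stood at 14.7, 15.5 and 15 TPM at 8 dpp, at 28.7, 25.9, 23.2, 29.1 and 25.3 TPM at 14 dpp and at 112, 94.8, 109, 78.7 and 75.5 TPM at 18 dpp. It was 2.54 ± 0.13 higher at 18 than at 8 dpp on the log2 scale (limma, adjusted p = 1.6e-15), without overlap. Trim37, which acts on centrosomes and histone H2A, was at 77.6, 64.6 and 69.2 TPM at 8 dpp and at 387, 361, 356, 239 and 223 TPM at 18 dpp, a rise of 2.10 ± 0.16 (limma, adjusted p = 9.4e-12). Rnf166 rose by 1.85 ± 0.12 (limma, adjusted p = 5.8e-13), from a mean of 39.8 ± 5.25 TPM (SD, n = 3) to 147 ± 27.6 TPM (SD, n = 5). Rnf112, a ligase known from brain, was at 1.00 TPM or less in every mouse up to 14 dpp. It was at 14.0, 13.6, 10.3, 4.70 and 3.93 TPM at 18 dpp, and it too was a row of the table only through later ages.

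In each of these 8 ligases, mice 4 and 5 at 18 dpp lay below mice 1 to 3. Those mice also had the lower late pachytene marker sums, 2677 and 2559 TPM against 4597, 4638 and 4483 TPM, and the higher Sertoli marker sums, 1508 and 1381 TPM against 1044, 1006 and 1048 TPM. Over the 40 rising ligases, 30 showed mice 4 and 5 below mice 1 to 3, where 63.6% of all rising genes did. Over the 49 falling ligases, 30 showed both above mice 1 to 3, where 56.6% of all falling genes did. The part of this difference between mice in the changes was not tested.

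Rnf208 had the largest fall, at 60.9, 75.9 and 78.2 TPM at 8 dpp, 45.0, 45.8, 36.7, 27.5 and 41.0 TPM at 12 dpp and 6.71, 6.21, 12.3, 12.4 and 12.3 TPM at 18 dpp. It fell by 2.77 on the log2 scale from 8 to 18 dpp (SE 0.22, limma, adjusted p = 1.5e-11), and no mouse at 12 dpp reached the lowest at 10 dpp. The gene overlaps Cysrt1 on the opposite strand. Trim62, a TRIM ligase linked to epithelial polarity, went from 34.2, 45.3 and 37.9 TPM at 8 dpp to 6.59, 5.12, 8.05, 8.42 and 6.82 TPM at 18 dpp. Its fall of 2.33 (SE 0.15, limma, adjusted p = 3.0e-13) included steps at 12, 16 and 18 dpp. Rnf122, a membrane ligase of the endoplasmic reticulum, fell by 2.29 (SE 0.14, limma, adjusted p = 1.8e-13), from 14.4, 19.4 and 15.1 TPM to 2.57, 2.39, 2.20, 2.31 and 3.14 TPM.

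Trim2, known as a ligase of neurofilament light chain, was at 10.1, 10.0, 10.1, 10.0 and 9.95 TPM at 10 dpp and at 3.17, 4.10, 6.03, 6.44 and 4.00 TPM at 12 dpp. This step was a fall by 0.98 on the log2 scale (SE 0.18, limma, adjusted p = 0.00024), and the fall from 8 to 18 dpp was 1.86 in size. Rnf152, a lysosomal regulator of mTORC1 signalling, fell by 1.69 (SE 0.13, limma, adjusted p = 1.3e-11), from 6.91 ± 0.471 TPM (SD, n = 3) to 1.46 ± 0.140 TPM (SD, n = 5). Trim71, the LIN41 protein of stem and early germ cells, was at 17.9, 16.7 and 18.0 TPM at 8 dpp and at 5.55, 4.87, 5.74, 6.15 and 7.35 TPM at 18 dpp. Trim71 fell by 1.43 (SE 0.11, limma, adjusted p = 1.3e-11), and its largest steps were falls by 0.47 from 14 to 16 dpp and by 0.53 from 16 to 18 dpp. Trim47 and Rnf144a each fell by 1.38 (SE 0.11 for both, limma, adjusted p = 2.8e-11 and 1.0e-11), from 113 ± 14.5 and 77.8 ± 2.39 TPM to 42.7 ± 4.86 and 29.5 ± 3.43 TPM.

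**Figure D3:**
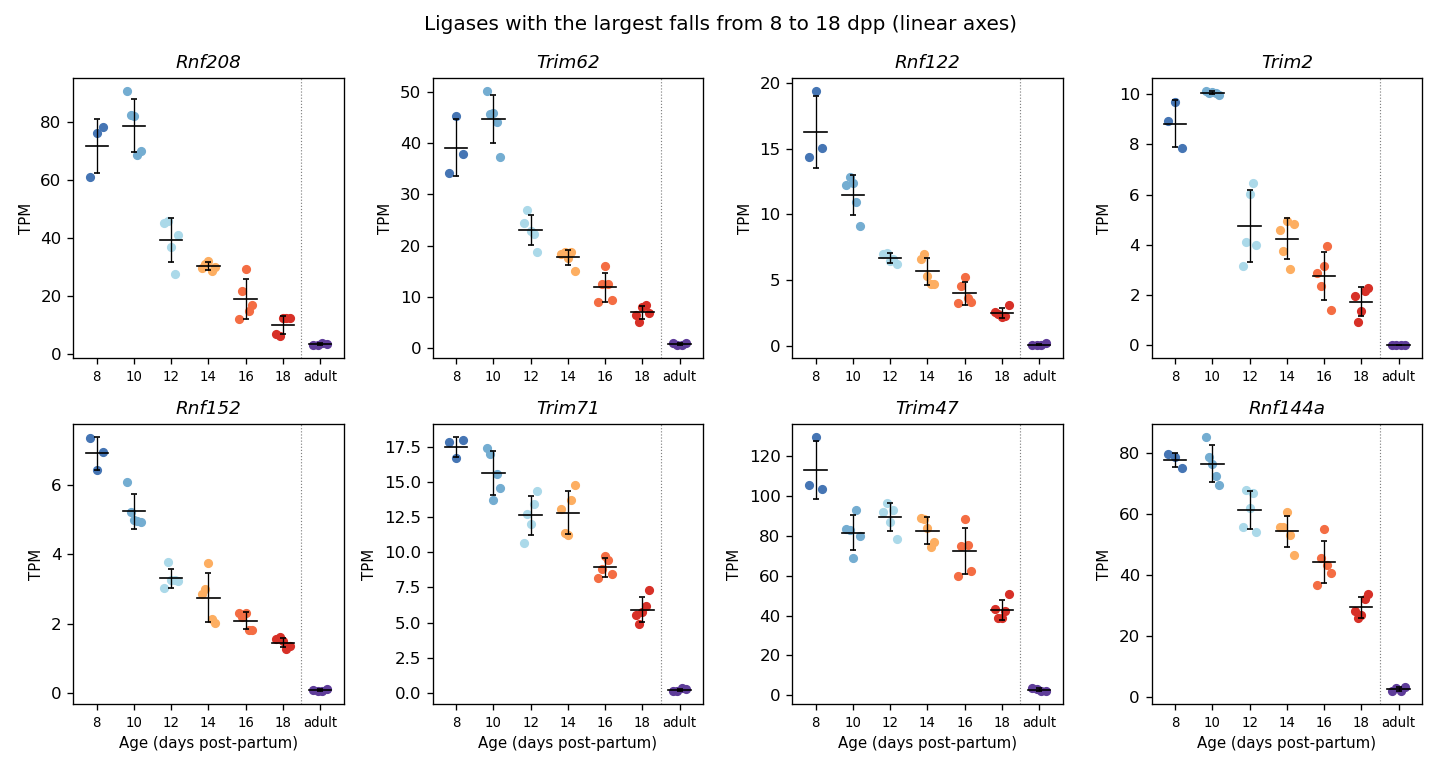
TPM (linear axes) by age for the 8 ligases with the largest falls from 8 to 18 dpp, 1 point per mouse or adult pool, with lines and bars for mean and SD. Rnf208, Trim62 and Trim2 step down between 10 and 12 dpp, and in every panel the adult pools lie below all mice.

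The steps between neighbouring ages showed when these changes came. From 8 to 10 dpp 2 ligases rose and 1 fell, against 0.977% and 0.226% of all genes. Rnf144b, a RING-between-RING ligase induced by p53, rose from 13.7, 15.1 and 14.7 TPM to 24.8, 24.0, 23.9, 23.5 and 23.4 TPM (0.69 ± 0.12 on the log2 scale, limma, adjusted p = 0.0017). Rnf34, a regulator of caspases whose locus overlaps Kdm2b, rose by 0.25 ± 0.05 (limma, adjusted p = 0.016). From 8 to 18 dpp Rnf34 did not pass the test (0.00 ± 0.05, limma, adjusted p = 0.94). Trim47 fell by 0.46 in this step (SE 0.11, limma, adjusted p = 0.034), and that call was lost without any 1 of the 3 mice at 8 dpp or without mouse 1, 2, 3 or 5 at 10 dpp, each leaving 0 falling ligases. Rising ligases came to 1 without 8 dpp mouse 2 or 3.

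From 10 to 12 dpp 16 ligases rose and 14 fell (12.0% and 9.39% of all genes), and with median-of-ratios factors 14 rose and 19 fell (10.9% and 11.5%). Besides Rnf32, Trim52 showed the clearest rise, from 5.40, 7.91, 6.42, 5.89 and 7.38 TPM to 14.2, 17.2, 18.8, 21.5 and 16.6 TPM (1.29 ± 0.13 on the log2 scale, limma, adjusted p = 2.3e-08). Trim52 then held between 13.4 and 22.7 TPM in every mouse to 18 dpp, while the adult pools stood at 2.01 to 2.92 TPM. Without 10 dpp mouse 1 the number of falling ligases was 9.

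Between 12 and 14 dpp no ligase passed the limma test in either direction, with 0.157% and 0.0147% of all genes called, and unadjusted p under 0.05 was met by 7 rising and 1 falling. By the library names, the index sequences of 8, 10 and 12 dpp recurred among those of 14, 16 and 18 dpp, so younger and older libraries with the same index had not shared a pool. No pool is named in the labels, and its part in changes between younger and older ages was not tested.

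From 14 to 16 dpp 13 rose and 20 fell (12.7% and 11.3%), and with median-of-ratios factors 14 rose and 10 fell (14.0% and 7.14%). Rnf145, an endoplasmic reticulum ligase of sterol control, fell by 0.34 (SE 0.07, limma, adjusted p = 0.00075), from 81.1, 82.2, 85.9, 77.2 and 79.2 TPM to 57.5, 67.0, 73.3, 66.2 and 56.9 TPM. The number falling rested on single mice, at 8 without 16 dpp mouse 1, 9 without 16 dpp mouse 5 and 13 without 14 dpp mouse 2 or mouse 3.

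The last step, from 16 to 18 dpp, was the broadest for these genes, with 31 rising and 54 falling (23.4% and 30.6%). Median-of-ratios factors turned this balance to 39 rising and 27 falling (30.4% and 17.8%). Trim47 fell by 0.74 (SE 0.10, limma, adjusted p = 2.3e-06), from 60.1, 75.1, 88.5, 75.6 and 62.2 TPM to 43.3, 38.9, 38.7, 42.3 and 50.6 TPM, without overlap. Of the 104 ligases that differed among ages, 25 had their highest mean at 8 dpp and 34 at 18 dpp. The 4 ages between held the peaks of 18, 10, 14 and 3 ligases in order of age. Over all genes that differed, 36.2% were highest at 18 dpp and 21.8% at 8 dpp.

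The ligases were also grouped by known role, and each group's counts stand beside 31.8% of all genes rising and 36.3% falling from 8 to 18 dpp and a median gene at -0.09. The germ-cell and sperm list held the 4 largest rises, among them March11, March10 and Trim69, which were rows of the table only through later ages. Of 16 such genes listed, 10 were in the table, and 7 rose and 1 (Trim71) fell from 8 to 18 dpp, with a median of 0.88 on the log2 scale. With median-of-ratios factors 9 rose and with quantile normalization 6. The list collects genes known from germ cells and was chosen with earlier results of these data known. Its counts and median therefore describe the list and are no test. Trim27, a nuclear TRIM ligase abundant in testis, rose from 39.2, 36.6 and 43.9 TPM to 110, 113, 99.1, 76.7 and 72.2 TPM (1.20 ± 0.12, limma, adjusted p = 1.3e-09). Rnf19a, also called dorfin, rose by 0.57 ± 0.17 (limma, adjusted p = 0.0038) and, among the steps, passed the test in the last, going from 57.2, 48.2, 53.7, 50.4 and 55.1 TPM at 16 dpp to 127, 118, 112, 64.5 and 59.0 TPM at 18 dpp. Rnf141 rose by 0.24 ± 0.08 (limma, adjusted p = 0.0098), and without 8 dpp mouse 2 its adjusted p was 0.065.

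A pair of copied genes did not pass the test from 8 to 18 dpp. Rnf113a2, the autosomal copy of a splicing ligase, was at 15.5, 16.5 and 14.8 TPM at 8 dpp and at 26.5, 26.6, 25.4, 12.6 and 14.5 TPM at 18 dpp (0.35 ± 0.18, limma, adjusted p = 0.080). Its X-linked counterpart Rnf113a1 lay between 0.67 and 3.38 TPM in every mouse and was listed at 0 in the 4 adult pools. Rnf138rt1, an X-linked retrocopy of Rnf138, rose from 24.8 ± 3.97 TPM at 10 dpp to 37.0 ± 2.83 TPM at 12 dpp (SD, n = 5 each), by 0.57 ± 0.13 on the log2 scale (limma, adjusted p = 0.0015), and its adult pools held 3.69, 1.49, 3.25 and 1.96 TPM. Reads of such near-identical copies may be split between them, which holds also for Trim12a and Trim12c. Rnf128, a T-cell anergy ligase and the other X-linked member, rose by 0.76 ± 0.13 from 10 to 12 dpp (limma, adjusted p = 0.00011) and was at 15.8, 16.3, 13.8, 21.5 and 24.1 TPM at 18 dpp but at 1.00, 1.56, 1.33 and 1.45 TPM in the adult pools.

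Of 12 chromatin and DNA damage ligases listed, 11 were in the table, 3 rose and 5 fell from 8 to 18 dpp, near the shares over all genes, and the median was -0.14 on the log2 scale. Median-of-ratios factors turned this balance, with 4 rising, 2 falling and a median of 0.03. Quantile normalization did not, with 2 rising, 6 falling and a median of -0.21. Trim28, the corepressor of KRAB zinc finger proteins, was among the most abundant ligases at every age, with 341, 343 and 349 TPM at 8 dpp and 443, 443, 464, 418 and 412 TPM at 18 dpp (0.34 ± 0.07, limma, adjusted p = 0.00015). Trim24, a reader of histone H3 related to it, rose by 0.46 ± 0.11 (limma, adjusted p = 0.00068), from 70.2, 66.8 and 71.2 TPM to 123, 109, 101, 79.0 and 76.3 TPM. Trim33, the other relative, was at 34.3 ± 1.34 TPM (SD, n = 3) and 28.6 ± 3.82 TPM (SD, n = 5), a change of -0.26 ± 0.11 (limma, adjusted p = 0.032) that rose to 0.099 and 0.074 without 8 dpp mouse 1 or 3 and to 0.092 and 0.075 without 18 dpp mouse 4 or 5.

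The partners of histone H2B ubiquitination parted. Rnf20 was at 102, 87.4 and 87.5 TPM at 8 dpp and at 65.6, 73.7, 60.1, 74.7 and 75.4 TPM at 18 dpp, and it fell by 0.40 (SE 0.08, limma, adjusted p = 8.7e-05). Rnf40 was at 63.2, 69.8 and 70.8 TPM and at 102.5, 104, 86.1, 64.6 and 65.6 TPM, a rise of 0.28 ± 0.11 (limma, adjusted p = 0.030) whose mice overlapped. Without 8 dpp mouse 1 or 18 dpp mouse 1, 2 or 3 the adjusted p of Rnf40 was 0.126, 0.0993, 0.103 or 0.0530. Their adult pools lay at 20.3 ± 1.47 and 149 ± 7.95 TPM (SD, n = 4), and the difference between the 2 courses was not tested.

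Rnf4, a ligase for SUMO-tagged proteins, fell by 0.71 (SE 0.07, limma, adjusted p = 2.9e-09), from 159, 143 and 166 TPM to 85.2, 91.1, 95.4, 102 and 103 TPM, without overlap. Rnf111, which also reads SUMO, and Rnf169, a reader of ubiquitin at DNA breaks, fell by 0.24 and 0.40 (SE 0.09 and 0.12, limma, adjusted p = 0.013 and 0.0039). Without 8 dpp mouse 1 the adjusted p of Rnf111 was 0.0739. Rnf2, the H2A ligase of the Polycomb complex, and the DNA damage ligases Rnf168 and Rnf138 changed by -0.14 ± 0.08, -0.05 ± 0.09 and 0.09 ± 0.08 and did not pass the test.

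**Figure D4:**
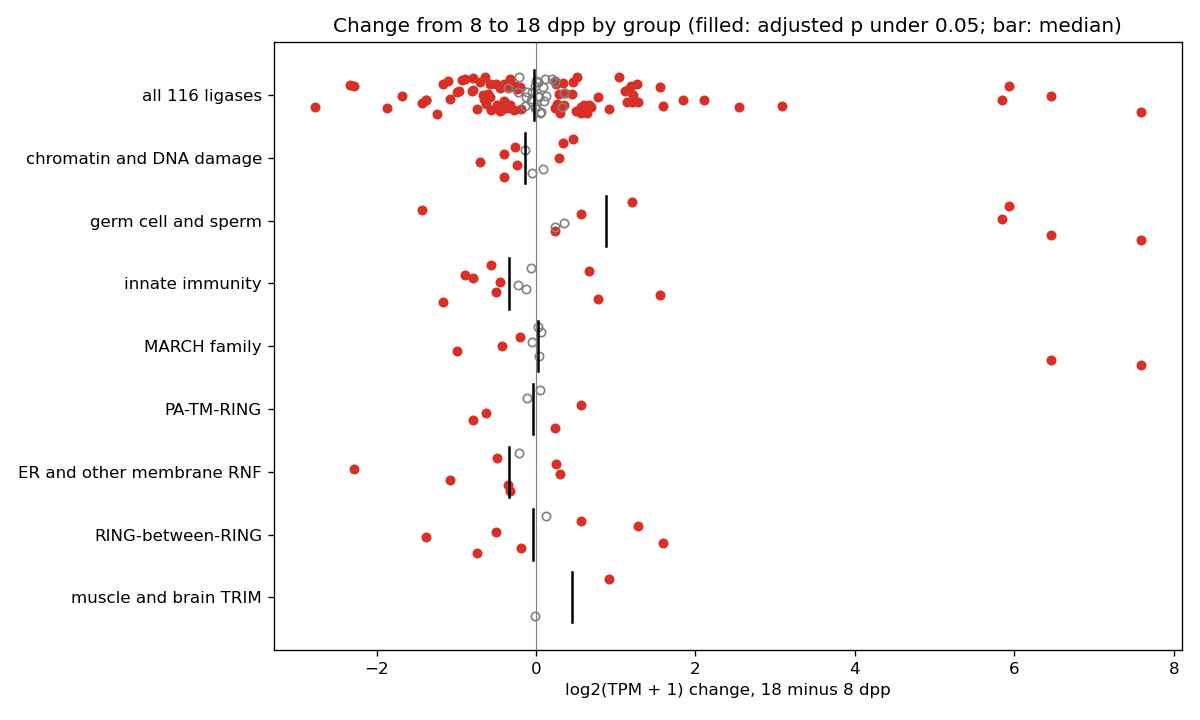
Change in log2(TPM + 1) from 8 to 18 dpp for all 116 ligases and for the role groups, 1 point per gene, filled where the adjusted p was under 0.05, with a bar for the group median. The germ cell and sperm group holds March11, March10, Trim69 and Rnf32 at the far right, and most other groups lie on both sides of 0. March11, listed at 0 at 8 dpp, is plotted at its fitted difference, which depends on the pseudocount.

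Of 20 innate immune ligases listed 12 were in the table, 3 rose and 6 fell, with a median of -0.34, and the counts under median-of-ratios factors were also 3 and 6. Rnf213, a giant ligase with an ATPase core, fell by 1.17 (SE 0.12, limma, adjusted p = 2.9e-09), from 50.2, 55.0 and 46.3 TPM to 22.3, 18.2, 20.7, 26.1 and 22.8 TPM. Rnf125, which acts on RIG-I, rose by 1.56 ± 0.29 (limma, adjusted p = 3.5e-05), from 1.59, 2.39 and 2.41 TPM to 13.8, 11.2, 9.83, 5.56 and 3.95 TPM. No 8 dpp mouse reached the 3 TPM that a row needed in at least 1 mouse, so Rnf125 entered only through later ages. Macrophage marker sums were 26.0 to 32.9 TPM at 8 dpp and 37.6 to 80.2 TPM at 18 dpp.

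Of the 9 March genes tested, March10 and March11 rose and 3 fell, and the largest fall was that of March8, which lowers receptors at the cell surface, by 0.99 (SE 0.10, limma, adjusted p = 2.5e-09), from 77.3, 71.9 and 81.2 TPM to 36.3, 31.8, 33.0, 45.0 and 47.7 TPM. Among 6 ligases with a protease-associated domain before the RING, 2 rose and 2 fell, and Rnf149 fell by 0.79 (SE 0.10, limma, adjusted p = 7.0e-08). Among 8 ligases of the endoplasmic reticulum and other membranes 2 rose and 5 fell, and with quantile normalization none rose and 6 fell. Rnf139, a sterol-sensing ligase, was at 30.2, 29.3 and 30.8 TPM at 8 dpp and at 47.0, 43.1, 42.0, 30.5 and 27.4 TPM at 18 dpp (0.30 ± 0.11, limma, adjusted p = 0.021). Its adjusted p was 0.0659 without 8 dpp mouse 2 and 0.0750, 0.0605 and 0.0560 without 18 dpp mouse 1, 2 or 3.

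Of 8 RING-between-RING ligases, which pass ubiquitin through a cysteine of their own, 3 rose and 4 fell, near the shares over all genes. The related Rnf144b and Rnf144a went opposite ways, with Rnf144b 1.59 ± 0.12 higher at 18 than at 8 dpp (limma, adjusted p = 3.2e-12) and Rnf144a lower as given above. The table held 2 of 7 muscle and brain TRIM genes. Trim46, which organises axonal microtubules, rose by 0.92 ± 0.32 (limma, adjusted p = 0.014), with adjusted p of 0.0587 and 0.0760 without 8 dpp mouse 2 or 3, and under quantile normalization it did not pass the test.

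Among the most abundant ligases, Rnf181 had means of 339 ± 16.6, 443 ± 29.0 and 345 ± 22.3 TPM (SD) at 8, 12 and 18 dpp, and Rnf187, a coactivator ligase, had 285 ± 5.61 and 290 ± 11.4 TPM (SD) at 8 and 18 dpp. Neither passed the test from 8 to 18 dpp (0.02 ± 0.06 for both). Rnf10, which ubiquitinates small ribosomal subunits, rose by 0.51 ± 0.06 (limma, adjusted p = 8.1e-09) to 352, 352, 361, 317 and 327 TPM at 18 dpp.

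The transcript table showed changes of isoform. Of 272 ligase transcripts from 66 genes, 12 from 7 genes changed their share of the gene's TPM by at least 20 percentage points between 8 and 10 dpp together and 16 and 18 dpp together (limma, adjusted p under 0.05), against 2.39% of all transcripts tested. Trim13, a ligase of endoplasmic reticulum quality control, had the largest. Its transcript ENSMUST00000165015 took 0, 17.0 and 9.98% at 8 dpp, 85.8, 34.5, 65.0, 19.4 and 76.2% at 16 dpp and 67.2, 78.0, 89.7, 52.2 and 86.7% at 18 dpp. This was a gain of 58.7 ± 7.56 points (limma, adjusted p = 4.1e-06), and ENSMUST00000039562 lost as many. The 2 starts lie 1293 bp apart on chromosome 14, both transcripts carry 1221 bp of coding sequence, and the locus overlaps Dleu2 on the other strand. The Trim13 gene as a whole rose by 1.20 ± 0.15 from 8 to 18 dpp (limma, adjusted p = 4.8e-08).

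Rnf146, which recognises poly(ADP-ribose), shifted to ENSMUST00000037548. Its share was 24.99, 31.4 and 27.999% at 8 dpp and 79.4, 77.1, 91.8, 72.9 and 58.4% at 18 dpp, without overlap, and the gain was 38.3 ± 3.51 points (limma, adjusted p = 2.5e-08). ENSMUST00000160372, which starts 395 bp away and has the same 1077 bp of coding sequence, changed by -22.2 points (SE 4.25, limma, adjusted p = 0.00058). In Rnf32, ENSMUST00000001247 gained 51.4 ± 9.66 points (limma, adjusted p = 0.00046), but the gene stood at 5.08 TPM or less in each mouse at 8 and 10 dpp, where the share ran from 0 to 91.9%. Trim11 moved from ENSMUST00000108809, with 759 bp of coding sequence, to ENSMUST00000093061, with 1401 bp. The form with the longer coding sequence, which is the shorter transcript, took 57.9% on average at 8 dpp and 80.4% at 18 dpp, a gain of 23.1 ± 3.08 points over the pooled ages (limma, adjusted p = 6.8e-06). Rnf144b moved by 32.9 ± 6.45 points between transcripts whose starts lie 71169 bp apart (limma, adjusted p = 0.00071), and Rnf123 had 1 called transcript.

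**Figure D5:**
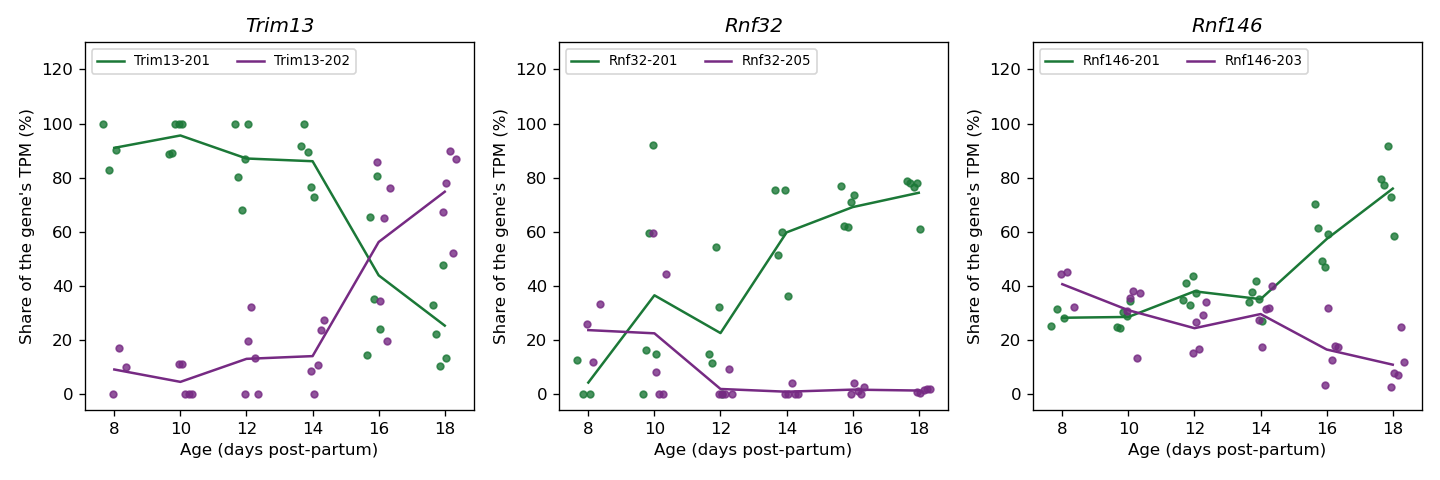
Share of the gene's TPM (%) taken by the called transcripts of Trim13, Rnf32 and Rnf146 at each age in days post-partum, 1 point per mouse, with lines through the means. In Trim13 the 202 transcript (ENSMUST00000165015) passes the 201 transcript (ENSMUST00000039562) at 16 dpp, and in Rnf146 the 201 transcript (ENSMUST00000037548) rises at 16 and 18 dpp.

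The adult pools of pachytene and diplotene cells were listed in a table made apart from that of the juveniles. Levels are therefore set side by side with no test. Of the 116 ligases 88, or 75.9%, reached 3 TPM in at least 1 pool, where 64.0% of all genes did. Adult means lay above the highest mouse at 18 dpp for 29 of the 40 rising ligases (67.7% of all rising genes) and below the lowest for 47 of the 49 falling ones (89.7% of all falling genes). Median level over the rising ligases was 25.0 TPM at 8 dpp, 68.5 TPM at 18 dpp and 90.4 TPM in the adult, and over the falling ligases it was 41.7, 27.5 and 6.30 TPM.

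The most abundant ligases of the adult pools were March11, Trim37 and March10. March11 stood at 786, 781, 741 and 779 TPM, Trim37 at 666, 699, 688 and 702 TPM, and March10 at 660, 677, 632 and 671 TPM. These 3 lay above every juvenile mouse. Trim2 was listed at 0 in all 4 pools, Rnf122 was at 0.05 to 0.21 TPM and Trim62 at 0.56 to 1.02 TPM, all below the mice at 18 dpp. Marker sums in the pools were 69.1 to 103 TPM for Sertoli cells and 30.5 to 35.6 TPM for spermatogonia. The late pachytene sum was 9596 to 9845 TPM. Leydig markers did not drop in this way, with sums of 206 to 270 TPM in the pools and 169 to 472 TPM at 18 dpp. Peritubular, macrophage and endothelial sums in the pools were each 10.73 TPM or less. The 6 spermatid markers, which were not rows of the juvenile gene table, summed to 869 to 1176 TPM, and the part of spermatids in the adult levels was not tested.

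For the rest of the ubiquitin relay, the counts from 8 to 18 dpp are likewise set against 31.8% of all genes rising and 36.3% falling. Of 4 ubiquitin genes 1 rose and 3 fell, and Ubb went from 2619 ± 93.7 to 4209 ± 367 TPM (0.68 ± 0.06, limma, adjusted p = 5.3e-10). Of 8 E1 genes 2 rose and 2 fell, and Uba1, the main activating enzyme, fell by 0.94 (SE 0.09, limma, adjusted p = 3.1e-10). Among 34 E2 genes 8 rose and 15 fell, with a median of -0.14. Ube2d2b, an E2 retrogene, went from 0.0700 ± 0.121 TPM to 156 ± 84.4 TPM (6.98 ± 0.36, limma, adjusted p = 4.1e-15). Its mean was 2.05 TPM at 14 dpp and 27.0 TPM at 16 dpp. Rows needed 3 TPM in at least 1 mouse, so Ube2d2b entered only through ages after 8 dpp, which favoured a rise. Of 25 HECT ligases 11 rose and 10 fell, and of 9 genes for cullins and Rbx1 4 rose and 2 fell. Among 59 F-box genes 20 rose and 19 fell, and of 48 ubiquitin-specific proteases 15 rose and 20 fell. The F-box and protease counts lay near the shares over all genes.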

How the data were processed

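Libraries had been aligned with Bowtie 1.0.0 and quantified with RSEM 1.2.8, per the submitters' processing notes. The transcript table and the adult table were deposited by the authors in TPM. The gene table, deposited by the authors for genes expressed in the juvenile samples, held score values equal to exp(log2(TPM + 1)) - 1 and not the TPM that had been planned for. It was converted back, and 20288 of 20368 genes then lay within 0.2 TPM of their summed transcripts (Rnf169 was the 1 ligase that did not). Converted column sums were 990305 to 993726. TPM keep no counts, so depth and its precision were unknown. Ensembl symbols came from GENCODE M21 (14896 of 15025 IDs), and promoters of 91 of the 116 ligases from RefSeq. Groups followed the labels, and p-values measure the spread between mice.

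Differences were tested on log2(TPM + 1) with limma 3.58.1 (R 4.3.3, trend, all 28 mice in 1 model, no block) with Benjamini-Hochberg adjustment over all genes, and tables were made with Python 3.11.15. Tested on simulated data for 18 against 8 dpp over 20368 genes, it recovered 94% of log2 changes of 1 and 99% of changes of 2, and 6.31% of calls were unchanged genes. Changes were added only to genes with a mean log2(TPM + 1) above 3, and no other gene changed. These rates therefore do not carry over to genes of lower level or to data in which most genes change. Transcript shares needed a gene mean of 3 TPM and a change of 20 points. Ligases and lists were chosen with earlier results of these data known. Named genes were the 8 largest rises and falls without overlap, the 2 largest at each step, the 3 most abundant, the X-linked, chromatin and germ-cell ligases, and the largest called changes in each other list, of which those the text turns on are given. Scaling, filters, pseudocount, covariate, block and left-out mice were the alternatives. The authors' lists of genes by substage were not used.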

Additional observations from a re-analysis of the deposited data

Results flagged for a closer look

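Among 288 groups of 4 or 5 samples of the 48 named ligases, 7 held a value set far from the rest of its group, and chance flags about 1 group in 20. March11 was at 741.15 TPM in adult pool 3 against 779.03 to 786.03 TPM in the others. Rnf152 was at 6.09 TPM in mouse 1 at 10 dpp (others 4.92 to 5.23 TPM), and Rnf144b was at 29.46 TPM in mouse 7 at 14 dpp (others 33.63 to 34.21 TPM). Trim24 was at 45.33 TPM in mouse 1 at 12 dpp (others 56.74 to 61.27 TPM), and Rnf40 was at 57.72 TPM in mouse 5 at 10 dpp (others 65.34 to 67.75 TPM). Rnf169 was at 6.16 TPM in mouse 5 at 18 dpp (others 6.80 to 7.05 TPM), and Rnf113a1 was at 0.67 TPM in mouse 2 at 12 dpp (others 2.05 to 2.55 TPM).

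Of the 45 matching genes that were not rows of the juvenile gene table, 8 reached 3 TPM in at least 1 adult pool. Rnf151 had an adult mean of 35.45 TPM (16.91 to 52.45 TPM) and at most 0.84 TPM in any juvenile mouse. Trim36 had 22.825 TPM (13.98 to 29.64 TPM) and at most 2.5 TPM, and Rnf133 had 15.41 TPM (12.17 to 18.35 TPM) and was listed at 0 in every juvenile mouse. Trim80 had 10.445 TPM, Rnf148 5.6125 TPM, Trim54 4.7875 TPM, Trim66 2.26 TPM and Trim42 2.115 TPM, and none of these 5 passed 1.69 TPM in a juvenile mouse.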

How the results depend on the processing

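No named ligase with a call from 8 to 18 dpp changed direction under the alternatives run. Median-of-ratios factors turned the balance of rising and falling ligases, to 39 and 27 from 16 to 18 dpp. From 8 to 18 dpp those factors gave 52 and 38, while quantile normalization gave 32 and 53. The ligase that fell from 8 to 10 dpp became 2 with a pseudocount of 5 and 0 with no filter, quantile normalization, one prior variance, the 2 ages alone, mice 1 to 3 as a covariate, mice 1 to 3 only or the replicate block, and the 2 that rose became 1 with the 2 ages alone. Falling ligases from 14 to 16 dpp were 11 with no filter, 10 with median-of-ratios factors, 13 with the 2 ages alone and 11 with mice 1 to 3 only, and 27 from 16 to 18 dpp with those factors. Asking also for a change of at least 1 on the log2 scale left 0 rising and 0 falling from 8 to 10 dpp, 3 and 1 to 12 dpp, 5 and 0 to 16 dpp, 6 and 0 to 18 dpp, and 19 and 12 from 8 to 18 dpp. A minimum of 10 points gave 21 transcripts. Leaving out each sample in turn gave, rising and falling, 1 to 3 and 0 to 1 from 8 to 10 dpp, 13 to 19 and 9 to 18 to 12 dpp, 10 to 16 and 8 to 22 to 16 dpp, 28 to 33 and 44 to 55 to 18 dpp, and 35 to 42 and 44 to 49 from 8 to 18 dpp. It also gave 100 to 105 ligases differing among ages, 11 to 13 transcripts and 87 to 88 ligases in adult cells. Mouse numbers did not pair the samples, since of 57 same-numbered pairs 3 correlated over 0.1 (median r 0.0147), as did 15 of 268 other pairs. With the replicate block 41 ligases rose and 48 fell from 8 to 18 dpp. The cause of these shifts was not tested. Named changes from 8 to 18 dpp lost their call in 51 instances over 16 ligases and gained it in 14 over 8. A further 16 instances, over 5 ligases, differed from the main fit in another way, and 1839 were classed as the same.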
